A study of Mus musculus with 43 samples.

Results

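The 40 genes described here act in DNA copying and cell division. They were followed through mouse hearts, cardiac endothelial cells and cardiomyocytes, uninjured and after myocardial infarction. They are 40 of the 57010 genes in the count table, chosen by symbol and not by their values. In all, 17 of them serve DNA replication: the helicase subunits Mcm2, Mcm3, Mcm4, Mcm5, Mcm6 and Mcm7, the helicase loading and activation factors Cdc6, Cdt1 and Gins2, the nucleotide enzymes Tyms, Rrm1, Rrm2 and Tk1, the sliding clamp Pcna, the methylation factor Uhrf1, and the E cyclins Ccne1 and Ccne2. The other 23 serve mitosis: Ccna2, Ccnb1, Ccnb2, Cdk1, Aurka, Aurkb, Plk1, Bub1, Bub1b, Cdc20, Top2a, Mki67, Birc5, Cenpe, Cenpf, Kif11, Kif20a, Kif23, Anln, Prc1, Tpx2, Nusap1 and Hmmr. All 40 passed the filter on low counts in every fit.

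The series holds 43 bulk RNA-seq libraries in 14 groups, from wild-type mice and from mice carrying the Vegfa stop-gained allele Q150X, made with CRISPR/Cas9. The design text calls the animals adult and writes HO beside Q150X; the labels give neither strain nor age. Whole hearts were taken at homeostasis (3 wild-type, 3 Q150X libraries) and at day 7 (4 and 4) and day 30 (3 and 4) after infarction. Endothelial fractions were taken at homeostasis (3 and 3) and day 3 (2 and 2), and cardiomyocyte fractions at homeostasis (3 and 3) and day 3 (3 and 3). How the fractions were isolated, and whether replicates came from separate animals, is not stated in the labels, so p-values measure the spread between these samples, which may be technical.

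Before a cell divides, MCM rings are loaded on DNA in G1 by Cdc6 and Cdt1 and start to unwind it in S phase, when Pcna holds the polymerases on the template and Tyms, Tk1 and ribonucleotide reductase (Rrm1, Rrm2) supply nucleotides. The B cyclins with Cdk1, the Aurora and Polo kinases, the Bub1 and Bub1b checkpoint, and the spindle and cleavage proteins then carry the cell through mitosis. E2F factors are known to switch on the replication genes, and the DREAM and MuvB complexes act on mitosis genes through the CHR element. Adult mouse cardiomyocytes rarely divide, whereas endothelial cells, fibroblasts and macrophages of the infarcted heart do.

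Promoters are shown first because the replication and mitosis genes carry different motifs in them. RefSeq promoter windows of GRCm38.p6, reaching 250 bases before to 50 after the start, were matched by symbol for 33 of the 40 genes (14 replication, 19 mitosis). An E2F core (TTTCCCGC, TTTCGCGC, TTTGCCGC or TTTGGCGC on either strand) lay in 7 of 14 replication promoters (50%; Cdc6, Cdt1, Mcm3, Mcm5, Mcm6, Mcm7, Uhrf1) and in 1 of 19 mitosis promoters (5.26%; Cdk1), against 2.6% of the 27025 genes in the table. The CHR element (TTTGAA or TTCGAA, either strand) lay in 2 of 14 replication promoters (14.3%) and in 15 of 19 mitosis promoters (78.9%), against 21.7% of all genes. The CCAAT box was found in 64.3% and 84.2%, against 41.1%. Printed below, 5′ to 3′ on the gene's strand and from 170 bases before to 30 after the start, are the promoters of the 6 genes with the smallest p between uninjured endothelial cells and cardiomyocytes among those with an E2F core or CHR element inside this shorter stretch. Capitals mark an E2F core in Mcm6 (chr1:128359676-128359875, minus strand), Mcm3 (chr1:20820283-20820482, minus) and Cdc6 (chr11:98907981-98908180, plus). Capitals mark a CHR element in Cdc20 (chr4:118437314-118437513, minus), Kif23 (chr9:61946770-61946969, minus) and Prc1 (chr7:80294281-80294480, plus).
Mcm6: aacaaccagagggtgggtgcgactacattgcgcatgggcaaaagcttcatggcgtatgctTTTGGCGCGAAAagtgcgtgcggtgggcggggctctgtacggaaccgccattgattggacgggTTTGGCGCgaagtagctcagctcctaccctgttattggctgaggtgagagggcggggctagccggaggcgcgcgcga
Mcm3: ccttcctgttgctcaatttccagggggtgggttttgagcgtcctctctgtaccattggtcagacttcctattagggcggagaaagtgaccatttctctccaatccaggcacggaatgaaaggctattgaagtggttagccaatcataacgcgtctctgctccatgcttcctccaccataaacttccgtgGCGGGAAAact
Cdc6: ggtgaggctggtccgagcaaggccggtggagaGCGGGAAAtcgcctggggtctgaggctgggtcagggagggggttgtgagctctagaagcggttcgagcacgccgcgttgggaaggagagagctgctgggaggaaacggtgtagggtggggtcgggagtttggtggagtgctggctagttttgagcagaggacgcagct
Cdc20: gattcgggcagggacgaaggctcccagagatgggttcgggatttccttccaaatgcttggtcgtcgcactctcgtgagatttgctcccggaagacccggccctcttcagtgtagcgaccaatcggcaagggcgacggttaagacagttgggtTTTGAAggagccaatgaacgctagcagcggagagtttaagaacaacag
Kif23: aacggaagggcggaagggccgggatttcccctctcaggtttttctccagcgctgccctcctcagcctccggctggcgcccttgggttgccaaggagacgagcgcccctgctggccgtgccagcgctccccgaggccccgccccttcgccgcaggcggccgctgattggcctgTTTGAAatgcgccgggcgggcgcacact
Prc1: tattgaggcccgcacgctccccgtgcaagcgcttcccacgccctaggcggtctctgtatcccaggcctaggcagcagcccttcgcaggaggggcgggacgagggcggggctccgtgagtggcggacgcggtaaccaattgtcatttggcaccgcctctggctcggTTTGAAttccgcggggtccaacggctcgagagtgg
In Mcm6 the first capital run holds 2 overlapping E2F cores, one on each strand. A match describes letters in a window and was not tested as a binding site.

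Levels are counts scaled to a common library size (CPM), scaled by TMM within a fraction and not divided by gene length, so levels are compared between samples and not between genes. Library totals ran from 25035490 to 45243608 counts, and none of 47 replicate pairs held identical values. Vegfa, whose transcript carries the stop codon, was counted in both genotypes (for example 455.7 to 554.0 CPM in wild-type and 455.2 to 621.7 in Q150X cardiomyocytes at homeostasis), so its level does not check the labels. Several libraries stood apart. Rag1, a recombinase of lymphoid precursors, reached 1289 CPM in replicate 2 of the Q150X endothelial cells taken at day 3, and its 10 endothelial markers summed to 915 CPM against 4766 to 7559 in the other day 3 libraries. Endothelial libraries of day 3 carried Xist at 493 to 1088 CPM and those of homeostasis at 0.649 to 1.19, so that time and sex cannot be told apart in this fraction. One wild-type and one Q150X heart of homeostasis (replicate 1 of each) held atrial markers at 2784 and 2733 CPM against 29.2 to 55.0 in the other 4, and wild-type heart replicate 4 of day 7 held placental markers at 1009 CPM.

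In uninjured wild-type mice both gene sets were highest in the endothelial fraction. Replication genes summed to 546 ± 40.8 CPM there (SD, n = 3), 97.9 ± 9.66 in whole hearts and 57.0 ± 4.36 in cardiomyocytes. The 23 mitosis genes were led in cardiomyocytes by 1 gene, Cenpf, a large kinetochore protein, which held 56.1% to 69.2% of their counts in the 6 uninjured cardiomyocyte libraries. Sums of mitosis genes are therefore given without Cenpf, a choice made after its counts were seen. Without it they were 155 ± 42.9 CPM in endothelial cells, 34.2 ± 2.79 in hearts and 9.37 ± 4.59 in cardiomyocytes. With it the means were 163, 47.5 and 23.3 CPM. The 3 endothelial libraries lay above all heart and cardiomyocyte libraries in both sums, in CPM scaled within each fraction.

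Tested in one fit over the 9 uninjured wild-type libraries, 35 of the 40 genes were higher and 1 lower in endothelial cells than in cardiomyocytes, where 73.8% of the 16585 genes tested were called at an adjusted p below 0.05 (39.4% higher). Called, rose and fell mean that threshold throughout, in edgeR's quasi-likelihood test with Benjamini-Hochberg adjustment over all genes tested. The median log2 difference was 1.84 for replication genes (13 of 17 higher), 3.18 for mitosis genes (22 of 23 higher) and 0.17 for all genes. Pcna, the sliding clamp, lay at 180, 237 and 202 CPM in endothelial cells and 18.5, 17.3 and 16.7 in cardiomyocytes (log2 difference 2.48 ± 0.16 SE, adjusted p 7.87e-08). Mcm6, a helicase subunit, lay at 51.9, 54.5 and 50.7 against 1.07, 1.91 and 1.68 (3.98 ± 0.26, 8.6e-08). In these CPM, scaled within each fraction, neither pair of groups overlaps. The log2 differences come from the joint scaling of the 9 libraries, so they do not match the ratios of these CPM.

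Other replication genes were higher by varying amounts. Mcm3 differed by 3.69 ± 0.24 on the log2 scale, Mcm4 by 2.78 ± 0.20, Rrm1 by 1.84 ± 0.13 and Cdc6 by 5.34 ± 0.62. Mcm2 (0.71 ± 0.30, adjusted p 0.0473) and Rrm2, the regulated reductase subunit (1.34 ± 0.25, 0.000534), were higher by less. Among mitosis genes, Cdc20, the activator of the anaphase-promoting complex, lay at 9.08, 8.64 and 16.0 CPM in endothelial cells and at 0.086, 0.0779 and 0.0658 in cardiomyocytes (6.08 ± 0.60, 3.07e-06). Kif23, a motor of the cleavage furrow, differed by 4.14 ± 0.42, and the checkpoint kinases Bub1b and Bub1 by 4.86 ± 0.68 and 4.89 ± 0.74. Mki67, a coat protein of mitotic chromosomes and a common mark of cycling cells, differed by 2.96 ± 0.50, Top2a, which untangles sister chromatids, by 2.46 ± 0.56, and Ccnb1 by 3.24 ± 0.86. Cenpf went the other way, at 7.67, 6.37 and 9.39 CPM in endothelial cells against 20.03, 9.43 and 12.5 in cardiomyocytes (−1.91 ± 0.33, 0.000333). In CPM scaled within each fraction its 2 groups adjoin, at 9.39 and 9.43, and the log2 difference rests on the joint scaling.

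These fractions differ in most genes, so the scaling matters. With library size alone in place of TMM the median of all genes moved from 0.17 to 1.51 between endothelial cells and cardiomyocytes, calls that were higher went from 53.4% to 79.9%, and 39 of the 40 genes were called higher; Cenpf was then not called (−0.60). Against whole hearts, endothelial cells were higher in 30 genes and lower in Tk1 and Cenpf (64.7% of all genes called, 31.5% higher), with medians of 1.51 for replication, 1.60 for mitosis and 0.01 for all genes. With library size alone the share of higher calls there went from 48.7% to 68.9% and neither Tk1 nor Cenpf was called. Cardiomyocytes were lower than hearts in 13 genes and higher in none (37.2% called, 21.3% lower), among them Mcm3 (−2.03 ± 0.24), Mcm6 (−1.94 ± 0.25), Kif23 (−2.27 ± 0.42), Cdc20 (−3.40 ± 0.64) and Mki67 (−1.54 ± 0.50). That count was 27 with library size alone, and the share of higher calls over all genes went from 42.7% to 3.34%.

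**Figure D1:**
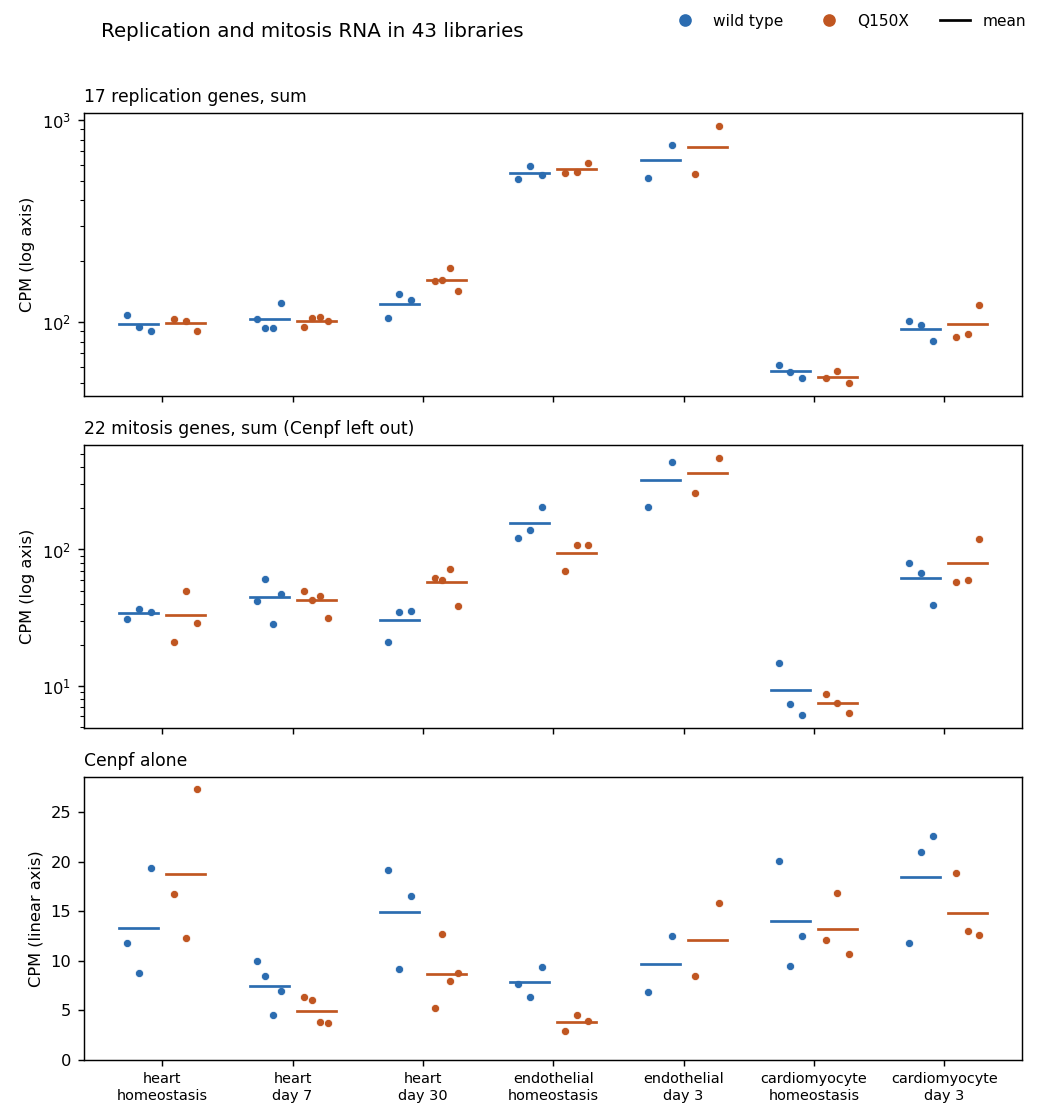
Summed levels of the 17 replication genes, of the 22 mitosis genes without Cenpf, and of Cenpf alone, in every library by fraction, time and genotype. Points are libraries, bars are group means, in CPM scaled by TMM within a fraction; the first 2 panels have log axes. Mitosis genes in cardiomyocytes move from 6.12 to 14.6 CPM at homeostasis to 39.5 to 119 at day 3, while Cenpf stays within 9.43 to 22.6.

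At day 3 after infarction most mitosis genes and many replication genes had risen in the cardiomyocyte fraction. In wild-type mice 30 of the 40 genes rose and none fell, in a comparison where 17.4% of 15169 genes were called (10.1% higher). Of 23 mitosis genes 20 rose, with a median log2 change of 2.99, and of 17 replication genes 10 rose, with a median of 1.10; the median of all genes was −0.01. In Q150X mice, tested against their own uninjured libraries, 35 rose and none fell (27% of all genes called, 14.9% higher): 22 mitosis genes with a median of 3.50 and 13 replication genes with a median of 1.56. All 30 genes of the wild-type comparison were among the 35, which added Ccnb2, Kif20a, Mcm7, Pcna and Rrm2. Leaving out the first wild-type day 3 library left 19 calls. With library size alone the counts were 33 and 35, while the share of higher calls over all genes went from 58.4% to 94.7% in wild-type and from 55.1% to 90.4% in Q150X.

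Bub1, a kinetochore checkpoint kinase, lay at 0.086, 0 and 0.0658 CPM in the uninjured wild-type cardiomyocyte libraries and at 3.01, 2.76 and 1.29 at day 3 (log2 change 5.44 ± 0.68 SE, adjusted p 0.000123). In Q150X it went from 0, 0.0327 and 0 to 1.55, 1.45 and 3.20. With 1 count in that uninjured group the pooled ratio was 172, with a 95% interval for counting error alone of 30.5 to 6807. The uninjured wild-type libraries held 2, 0 and 2 counts of Bub1, so its size there is imprecise too. Every day 3 library lay above every uninjured one in both genotypes. Mki67 lay at 2.02, 0.429 and 0.658 CPM and then at 9.98, 9.29 and 5.07 in wild-type (3.00 ± 0.53, 0.00337), and at 1.11, 0.884 and 0.434 and then at 7.196, 6.34 and 14.1 in Q150X (3.51 ± 0.55, 0.000856). Top2a lay at 3.40, 0.779 and 0.4934 and then at 11.6, 10.8 and 6.60 (2.68 ± 0.60, 0.0128), and in Q150X at 0.616, 0.786 and 0.542 and then at 8.67, 10.9 and 20.3 (4.34 ± 0.66, 0.00112). The first uninjured wild-type library was the highest of its group in both genes, and the third Q150X library the highest at day 3.

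The other mitosis genes rose by role as follows. Among the cyclins and kinases, Ccna2 rose by 2.99 ± 0.51 in wild-type and 6.20 ± 0.68 in Q150X. Ccnb1, the cyclin that drives entry into mitosis, rose by 3.36 ± 0.78 and 5.25 ± 0.91. Each began below 1 CPM in every uninjured library. Uninjured Q150X libraries held 2, 2 and 0 counts of Ccna2 and 2, 0 and 2 of Ccnb1, so these sizes are imprecise. In uninjured wild-type the counts were 8, 18 and 4 of Ccna2 and 8, 0 and 4 of Ccnb1. Aurkb, the chromosomal passenger kinase, had 3 counts in the uninjured wild-type group and 71 at day 3, a pooled ratio of 14.8 (4.86 to 73.4). In Q150X it had 0 and 118 counts and was at least 27.3-fold higher, taking 3 counts over the group as the floor; the median above is the same with Aurkb at that bound. Cdc20 rose by 4.30 ± 0.56 and 2.84 ± 0.47, and Bub1b by 4.72 ± 0.67 in wild-type. Of the spindle and cleavage genes, Anln, which scaffolds the contractile ring, rose by 3.81 ± 0.58 and 3.69 ± 0.56, Prc1, which bundles the midzone, by 2.42 ± 0.43 and 2.95 ± 0.43, and Kif23 by 3.50 ± 0.57 in Q150X. Hmmr, a spindle protein, had 2 counts in uninjured Q150X and 182 at day 3, a pooled ratio of 63.2 (17.3 to 526).

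Replication genes split. Mcm6 lay at 1.07, 1.91 and 1.68 CPM and rose to 8.47, 8.87 and 5.20 in wild-type (2.26 ± 0.31, adjusted p 0.000266), and from 1.23, 1.74 and 1.12 to 6.27, 6.42 and 11.7 in Q150X (2.57 ± 0.32, 7.39e-05). Mcm3 rose by 1.79 ± 0.30 and 2.06 ± 0.30, Mcm5 by 2.22 ± 0.60 and 3.10 ± 0.63, and Mcm4 by 0.85 ± 0.19 and 0.90 ± 0.19. Cdt1, which loads the helicase, rose by 3.05 ± 0.68 in wild-type, and Tyms, thymidylate synthase, by 3.38 ± 0.51 in Q150X; both began below 0.7 CPM. Cdc6 had 2 counts in uninjured Q150X and 84 at day 3, a pooled ratio of 29.2 (7.83 to 245). Pcna and Rrm1, the replication genes with the most counts in uninjured cardiomyocytes, changed by small amounts. Pcna lay at 18.5, 17.3 and 16.7 CPM and then at 23.6, 21.4 and 22.5 in wild-type (0.36 ± 0.12, 0.0525), and in Q150X it rose from 15.1, 16.7 and 15.9 to 18.3, 22.9 and 25.6 (0.48 ± 0.12, 0.00854). Rrm1 rose by 0.66 ± 0.17 in wild-type. Rrm2 changed by 0.70 ± 0.42 in wild-type (0.283) and rose by 1.56 ± 0.44 in Q150X (0.0157). The 5 genes called in neither genotype were Mcm2 (0.22 ± 0.30 and 0.41 ± 0.30), Cenpf (0.41 ± 0.31 and 0.16 ± 0.31), Tk1, Gins2 and Ccne2.

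**Figure D2:**
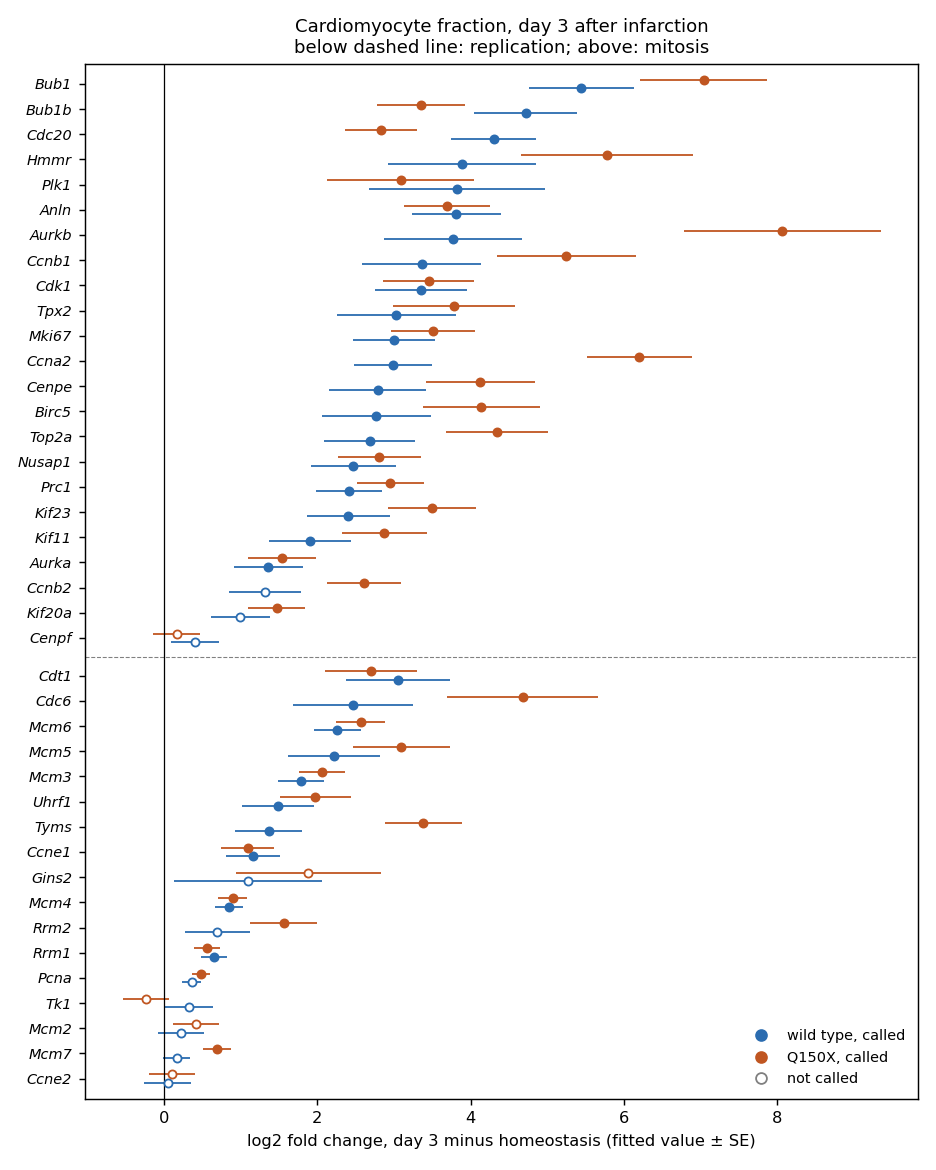
Log2 change from homeostasis to day 3 of the 40 genes in the cardiomyocyte fraction, wild-type and Q150X side by side, with standard errors; filled points were called in edgeR's test. The mitosis genes cluster around medians of 2.99 and 3.50 and the replication genes around 1.10 and 1.56, with Cenpf and Mcm2 near 0; the Q150X point of Aurkb is a fitted value against a group with 0 counts and is no bound.

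Levels of the 2 sets per library show the same contrast. Replication genes summed to 52.9 to 61.5 CPM in uninjured wild-type and 49.8 to 57.4 in uninjured Q150X cardiomyocytes, and to 80.2 to 102 and 84.4 to 121 at day 3, a ratio of means of 1.63 and 1.83. Mitosis genes without Cenpf summed to 6.12 to 14.6 and 6.32 to 8.75, and to 39.5 to 79.5 and 58.2 to 119 at day 3, a ratio of 6.62 and 10.5. None of these ranges overlaps between the times. Replication counts were 4.21 to 8.64 times these mitosis counts in the uninjured libraries and 1.01 to 2.03 times at day 3. With Cenpf among the mitosis genes, the ratios of day 3 to homeostasis were 3.45 in wild-type and 4.53 in Q150X. Replication counts were then 1.78 to 3.37 times the mitosis counts at homeostasis and 0.917 to 1.29 times at day 3. Cenpf made up 56.1% to 69.2% of the counts of all mitosis genes at homeostasis and 9.59% to 36.4% at day 3, with its own level overlapping between the times (9.43 to 20.03 CPM against 11.8 to 22.6).

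RNA of other cell types in the cardiomyocyte fraction moved with these genes, and its part in the result was not tested. The 10 monocyte and macrophage markers summed to 6.53, 12.7 and 8.72 CPM in uninjured wild-type cardiomyocytes and 223, 170 and 117 at day 3. In Q150X they summed to 2.71, 4.91 and 4.66 and then to 135, 151 and 321. All 10 rose in both genotypes, and only Ccr2 was at 0 in an uninjured group. The 9 fibroblast markers summed to 48.8 to 102 CPM and then 426 to 751 in wild-type (6 rose), and to 23.0 to 61.0 and then 539 to 941 in Q150X (7 rose). Endothelial markers, in wild-type, summed to 193 to 451 CPM and then 178 to 226, with 0 of 10 called, and to 137 to 203 and then 224 to 264 in Q150X, with 2 of 10 called higher. Pericyte and smooth muscle markers overlapped between the times (450 to 778 against 430 to 607 CPM). Neutrophil markers were at most 0.361 CPM in sum and then 1.83 to 5.64, and 10 of 10 lymphocyte markers were at 0 in uninjured Q150X. The 10 cardiomyocyte markers summed to 58664 to 72482 CPM and then 44797 to 56523, with 4 lower in wild-type and 5 in Q150X.

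Within the day 3 libraries the order of the mitosis sum follows that of the macrophage and endothelial sums in both genotypes. It follows the fibroblast sum in Q150X, and the pericyte and smooth muscle sum in neither. Endothelial markers lay at 225.5, 216.6 and 178 CPM in wild-type and at 223.9, 224.6 and 264 in Q150X. The third Q150X library was highest in mitosis genes (119 CPM), macrophage markers (321) and fibroblast markers (941), and the third wild-type library was lowest in all 3 (39.5, 117 and 426). These 6 libraries share fraction and injury, so this is a description only. Per 100 CPM of macrophage markers, mitosis genes without Cenpf counted 33.8 to 43.1 CPM in the 6 day 3 libraries and 57.8 to 323 in the uninjured ones. Per 100 CPM of fibroblast markers they counted 8.91 to 12.7 and 7.22 to 38.1. Infarcted whole hearts were lower, at 2.86 to 8.26 per 100 CPM of macrophage markers and 0.792 to 1.46 of fibroblast markers. Wild-type endothelial cells of day 3 held 6.19 and 10.2 per 100 CPM of macrophage markers, and 6.70 and 10.4 of fibroblast markers. In Q150X the lymphoid library held 66.4 and 166 and the other 3.47 and 12.3, in that order. The source of these differences was not tested. In bulk RNA, more cells of a type and more RNA per cell cannot be told apart.

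**Figure D3:**
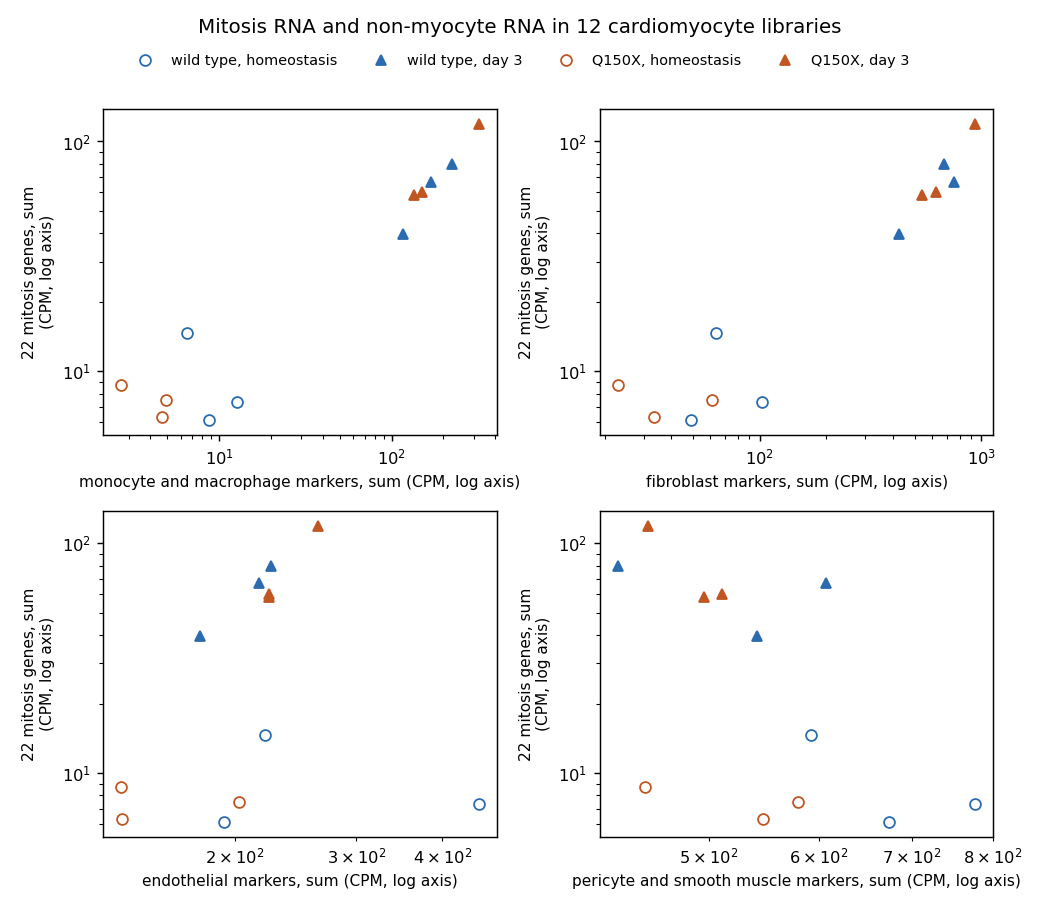
Summed mitosis genes without Cenpf against summed markers of macrophages, fibroblasts, endothelial cells and pericytes in the 12 cardiomyocyte libraries, in CPM on log axes; colour gives the genotype and marker shape the time. Day 3 libraries sit at 39.5 to 119 CPM of mitosis genes with 117 to 321 CPM of macrophage markers, while endothelial markers span 137 to 451 CPM across both times.

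Levels at homeostasis were also set against the other fractions. In uninjured wild-type mice the cardiomyocyte level was 10.5% of the endothelial level for the summed replication genes and 6.03% for mitosis genes without Cenpf, against 2.24% for endothelial markers, 4.83% for fibroblast, 5.97% for macrophage and 14.9% for pericyte and smooth muscle markers. Taken against whole hearts it was 58.2% and 27.4%, against 20.01%, 5.17%, 2.34% and 50.4%. With Cenpf in the mitosis sum, the cardiomyocyte level was 14.3% of the endothelial and 49.1% of the heart level. The order of the mitosis and replication sums against endothelial cells therefore depends on Cenpf. These ratios compare CPM scaled within each fraction and move with the scaling described above.

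In the endothelial fraction at day 3, 6 of 17 replication genes and 1 of 23 mitosis genes had risen in wild-type cells, and 10 and 18 in Q150X cells. In wild-type cells 7 of 40 rose and none fell, where 9.52% of 18223 genes were called (6.71% higher, 2.81% lower): Uhrf1, Tyms, Mcm5, Gins2, Tk1, Cdt1 and the mitotic kinase Plk1. The medians were 0.83 for replication genes and 1.02 for mitosis genes, against 0.01 for all genes. In Q150X cells 28 rose and Rrm1 fell (33.8% called, 18.7% higher and 15.1% lower), 10 replication genes with a median of 1.20 over the 17 and 18 mitosis genes with a median of 1.82, against 0.07. Of the 7 wild-type genes 6 also rose in Q150X, all but Tyms. The difference in response between genotypes was tested as an interaction and called in 0 of the 40 genes by edgeR and by DESeq2. Over all genes they called 0% and 2.62%. Of the 40, 1 replication and 1 mitosis gene had an unadjusted p under 0.05, against 12.6% of all genes. Without replicate 1 of the Q150X day 3 group, which leaves the lymphoid library alone in it, 10 were called.

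Uhrf1, which carries DNA methylation through replication, lay at 5.47, 6.32 and 7.99 CPM in uninjured wild-type cells and at 26.9 and 42.0 at day 3 (log2 change 2.38 ± 0.34 SE, adjusted p 0.00454). In Q150X it lay at 4.28, 6.32 and 6.73 and then at 24.4 and 44.3 (2.57 ± 0.34, 0.00165). The times do not overlap, and it was the only gene called in wild-type cells under every alternative run. Mcm5 rose by 1.85 ± 0.35 and 2.22 ± 0.35, Cdt1 by 1.47 ± 0.36 and 2.20 ± 0.36, and Tk1, the salvage thymidine kinase, by 1.10 ± 0.25 and 1.35 ± 0.26. Gins2 rose in wild-type by 2.42 ± 0.47, though 67.3% of its exon bases lie opposite Gse1 and strand was not stated. Mcm2 changed by 1.27 ± 0.39 in wild-type (0.0816) and rose by 2.02 ± 0.39 in Q150X.

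Pcna and Rrm1 had lower levels at day 3. Pcna lay at 180, 237 and 202 CPM and then at 97.6 and 140 in wild-type (−0.80 ± 0.22, adjusted p 0.0533), and at 220, 195 and 230 and then at 134 and 152 in Q150X (−0.59 ± 0.21, 0.0618). Its groups do not overlap in either genotype, and neither change was called. Rrm1, the large reductase subunit, fell from 102, 123 and 119 to 51.0 and 59.1 CPM in Q150X (−1.06 ± 0.21, 0.0076). Rrm2 changed by 0.83 ± 0.44 (0.277) and 1.20 ± 0.44 (0.0634).

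Mki67 lay at 13.7, 14.1 and 22.3 CPM and then at 27.3 and 55.2 in wild-type (1.30 ± 0.40, adjusted p 0.0824), and rose from 6.06, 11.9 and 11.1 to 47.0 and 72.5 in Q150X (2.63 ± 0.41, 0.00329). Top2a changed by 1.74 ± 0.50 in wild-type (0.0662) and rose by 3.01 ± 0.51 in Q150X, to 46.2 and 134 CPM. Ccnb1 changed by 1.25 ± 0.45 (0.127) and rose by 2.07 ± 0.46. Plk1 rose by 1.87 ± 0.37 and 2.16 ± 0.38, and in Q150X Bub1b rose by 2.08 ± 0.36, Bub1 by 2.51 ± 0.51 and the spindle motor Kif11 by 2.50 ± 0.51. The second library of each day 3 group was the higher one in most of these genes.

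Markers of leukocytes and of other cell types moved with these results too, and their part was not tested. Macrophage markers summed to 100 to 199 CPM at homeostasis and to 3319 and 4314 (wild-type) and 7448 and 705 (Q150X) at day 3, with 10 of 10 higher in both genotypes. Of 10 endothelial markers, 0 were called in wild-type and 6 fell in Q150X. Their sum was 12481 to 13643 CPM in uninjured wild-type cells and 7330.5 and 7559 at day 3. In Q150X it was 11917 to 12677 and then 4766 and 915. Fibroblast markers summed to 1416 to 1512 and then 3066 and 4252 in wild-type. In Q150X they summed to 1132.5 to 1381 and then 2096 and 282. Pericyte and smooth muscle markers summed to 3836 to 5386 and then 2225 and 2163 in wild-type. In Q150X these summed to 4748 to 5629 and then 1040 and 176. Neutrophil markers summed to 1.52 to 5.38 and then 715, 581, 1504 and 76.1. The second Q150X library, with the lymphoid markers, held the most of both sets: 934 CPM of replication and 469 of mitosis genes, against 544 and 258 in the first. Without it, 23 genes were called in place of 29 (9 replication and 12 mitosis genes rose, and Rrm1 and Pcna fell), with medians of 0.70 and 1.40; the lone library left is then assumed to vary like the other groups. In wild-type cells leaving out 1 library left 1 to 6 calls: 1 without the second day 3 library, and 3, 2 and 3 without replicate 1, 2 or 3 of the uninjured ones. The count was 4 with library size alone (9.40% of all genes called), and DESeq2 gave 17 (19.0% of all genes). In Q150X library size alone moved the share of higher calls over all genes from 55.3% to 41.6%.

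**Figure D4:**
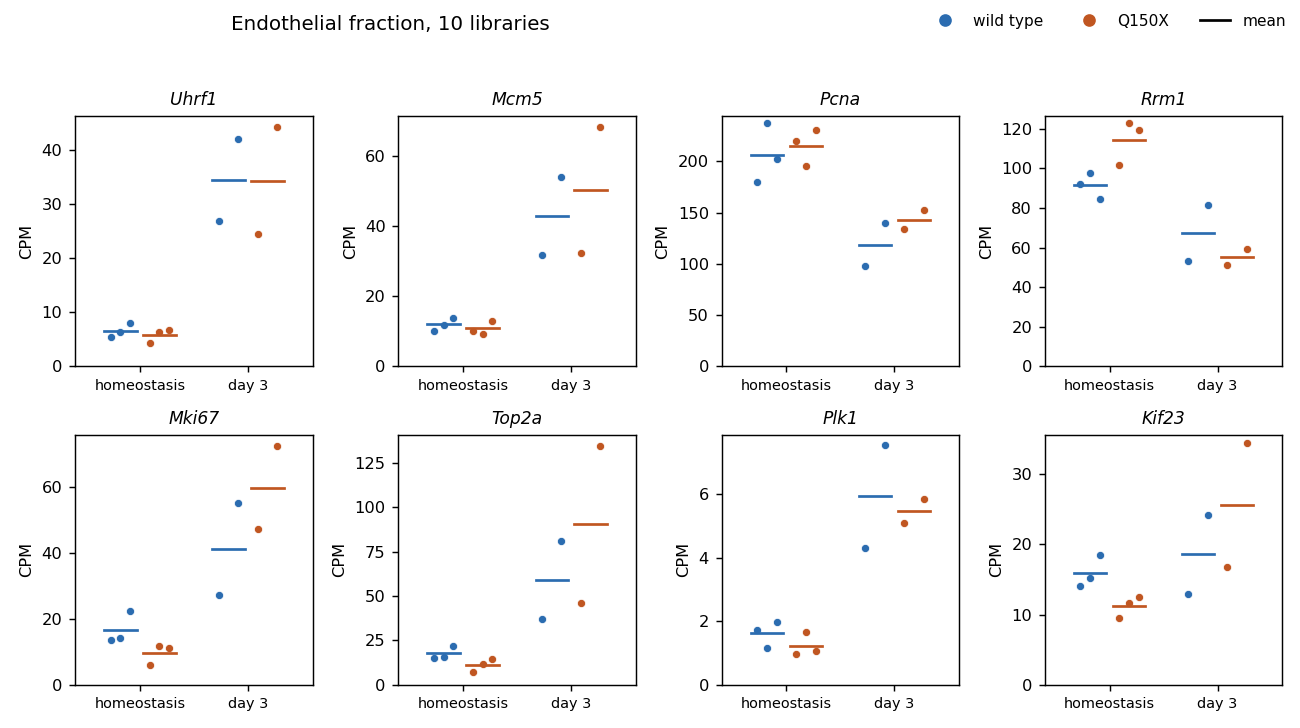
CPM of Uhrf1, Mcm5, Pcna, Rrm1, Mki67, Top2a, Plk1 and Kif23 in the 10 endothelial libraries by time and genotype; points are libraries and bars are group means. Uhrf1 moves from 4.28 to 7.99 CPM at homeostasis to 24.4 to 44.3 at day 3, and Pcna from 180 to 237 down to 97.6 to 152.

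In whole hearts few of the 40 genes were called at day 7. There one gene rose and one fell in wild-type hearts (13.7% of 17845 genes called, 7.65% higher and 6.07% lower): Cdk1, the mitotic kinase, rose from 0.674, 0.728 and 0.752 CPM to 1.21, 2.66, 1.08 and 2.00 (log2 change 1.27 ± 0.38 SE, adjusted p 0.0305). Mcm2 fell from 9.89, 6.09 and 6.72 to 3.18, 4.26, 2.64 and 5.27 (−0.98 ± 0.28, 0.024). In Q150X hearts Mcm7, Birc5 and Cdk1 rose and Mcm2, Mcm5 and Cenpf fell (26% called, 13.8% higher and 12.3% lower). Cenpf fell from 16.7, 12.3 and 27.3 to 6.29, 5.99, 3.84 and 3.70 CPM (−1.92 ± 0.36, 0.000812), and Mcm5 from 4.67, 5.23 and 4.45 to 2.39, 2.56, 1.67 and 1.95 (−1.16 ± 0.28, 0.00496). Birc5, the passenger protein survivin, rose by 1.42 ± 0.44. Medians were −0.07 for replication and 0.43 for mitosis genes in wild-type and −0.11 and 0.34 in Q150X, against 0.05 and 0.06 for all genes. Mki67 changed by 0.48 ± 0.46 and 0.64 ± 0.46, Top2a by 0.05 ± 0.46 and 0.09 ± 0.45, and Ccnb1 by 1.67 ± 0.59 (0.0653) and 1.09 ± 0.58, none called; Pcna (0.31 ± 0.13 and 0.19 ± 0.13) and Rrm2 (0.996 ± 0.464 and 0.25 ± 0.46) were not called either. The split of calls over all genes moved with library size alone, from 52.9% to 77.4% higher in Q150X, and without the filter on low counts, from 55.8% to 43.1% in wild-type.

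At day 30, 15 of the 40 genes rose and Cenpf fell in Q150X hearts against homeostasis (29.7% called, 15.6% higher, 14.2% lower): 9 of 17 replication genes rose (median 0.85) and 6 of 23 mitosis genes (median 0.91), against −0.03 for all genes. Mcm6 rose from 7.09, 8.25 and 9.93 CPM to 16.7, 16.4, 21.5 and 15.1 (1.05 ± 0.21, adjusted p 0.0012), without overlap. Uhrf1 rose from 2.35, 2.85 and 1.46 to 5.41, 5.27, 5.36 and 5.41 (1.27 ± 0.32, 0.0055), without overlap and with the 4 day 30 values close together. Birc5 rose from 0.379, 0.872 and 0.499 to 2.31, 3.54, 2.97 and 1.10 (2.07 ± 0.45, 0.00207). Mcm3 (0.98 ± 0.24), Mcm7 (0.85 ± 0.21), Rrm1 (0.63 ± 0.16) and Tyms (1.35 ± 0.37) rose, as did Bub1b (1.28 ± 0.36), Cdk1 (1.25 ± 0.37), Anln (1.27 ± 0.40), Tpx2 (1.43 ± 0.45) and Ccnb1 (1.69 ± 0.59). Mki67 (0.62 ± 0.46, adjusted p 0.329), Top2a (0.71 ± 0.46, 0.255), Pcna (0.25 ± 0.13, 0.155), Mcm2 (0.67 ± 0.28, 0.0764) and Rrm2 (1.13 ± 0.47, 0.0745) were not called.

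In wild-type hearts at day 30 none of the 40 genes was called by edgeR, where 8.93% of all genes were (5.45% higher, 3.49% lower). An unadjusted p under 0.05 was found for 4 replication and 3 mitosis genes, against 27.5% of all genes. DESeq2 called 1, against 15.5% of all genes. The medians were 0.40 and −0.14, against −0.02 for all genes. Mcm6 lay at 8.73, 14.5 and 10.99 CPM, against 11.5, 6.51 and 8.27 in uninjured wild-type hearts; these groups overlap, and all 3 values lie below the Q150X hearts of day 30. Without the libraries that stood apart, 10 genes were called: 6 replication and 2 mitosis genes higher, and 1 of each lower. That fit left out the uninjured wild-type and Q150X hearts with atrial markers and the wild-type day 7 heart with placental markers. Over all genes 34.0% were called in it, in place of 8.93%. Leaving out the uninjured wild-type heart with atrial markers alone gave 5 calls. The Q150X count was 6 to 19 with 1 library left out in turn, 6 without the third uninjured Q150X heart. With library size alone the share of higher calls over all genes went from 52.4% to 81.3% in Q150X, and its median from −0.03 to 0.24.

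Between day 7 and day 30 the helicase subunits Mcm2, Mcm3 and Mcm5 rose in both genotypes. Mcm4 and Mcm6 were called in Q150X and not in wild-type, a difference that was not tested, and Mcm7 in neither (−0.06 ± 0.21 and 0.18 ± 0.19). In wild-type hearts 5 of the 40 genes rose and 3 fell (30% called, 13.9% higher and 16.1% lower), and in Q150X hearts 11 rose and none fell (31.4% called, 14.9% higher and 16.5% lower). Mcm5 went from 2.64, 2.13, 2.22 and 3.86 to 5.11, 8.44 and 6.47 CPM in wild-type (1.30 ± 0.28, adjusted p 0.00211) and from the Q150X values above to 8.82, 7.74, 11.9 and 9.53 (2.14 ± 0.27, 1.6e-05). Mcm2 rose by 1.47 ± 0.28 and 1.85 ± 0.26, Mcm3 by 0.90 ± 0.24 and 1.26 ± 0.22, and Gins2 by 1.55 ± 0.56 and 2.05 ± 0.54. Among mitosis genes of wild-type hearts, Cenpe, a kinetochore motor, fell by 1.92 on the log2 scale (SE 0.52), Ccnb1 by 1.93 (SE 0.60) and Kif11 by 1.21 (SE 0.40), while Cenpf rose by 0.997 ± 0.354. In Q150X Aurkb rose by 1.59 ± 0.45 and Kif23 by 0.98 ± 0.28, and Uhrf1 and Rrm1 by 1.42 ± 0.29 and 0.84 ± 0.15. The wild-type count was 3 without the first day 30 heart and 5 without replicate 2 or 4 of day 7 or replicate 3 of day 30; the Q150X count was 7 without the third day 30 heart.

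**Figure D5:**
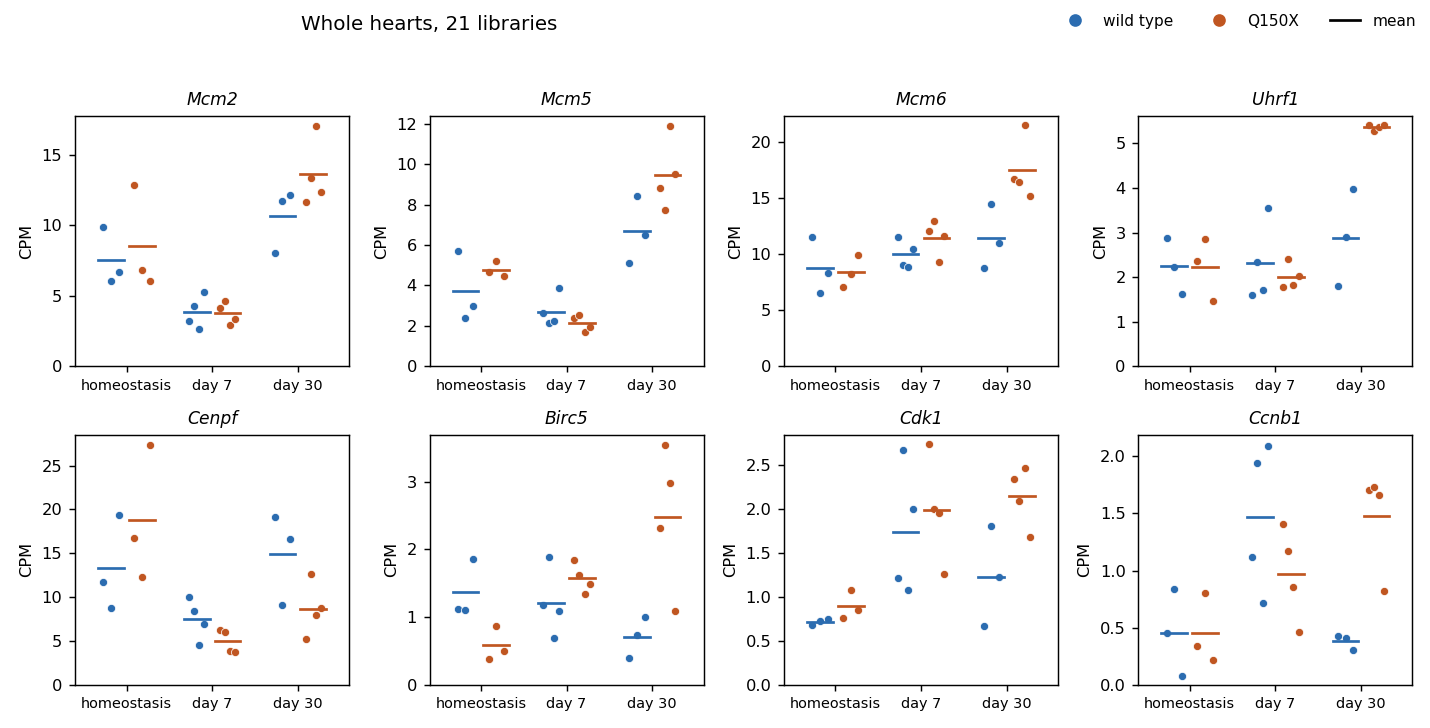
CPM of Mcm2, Mcm5, Mcm6, Uhrf1, Cenpf, Birc5, Cdk1 and Ccnb1 in the 21 whole-heart libraries by time and genotype; points are libraries and bars are group means. Mcm2 and Mcm5 are lowest at day 7, Mcm6 reaches 15.1 to 21.5 CPM in Q150X hearts at day 30, and Cenpf is lowest in Q150X hearts at day 7 (3.70 to 6.29).

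Marker sums in hearts also changed with time, and their part was not tested. At day 7 macrophage markers summed to 396 to 764 CPM in wild-type (1 of 10 higher) and 633 to 1279 in Q150X hearts (6 of 10), and fibroblast markers to 2035 to 4918 (3 of 9) and 3191 to 5907 (6 of 9). The replication genes at that time summed to 93.0 to 124 and 94.7 to 106 CPM, against 90.0 to 109 and 90.7 to 104 at homeostasis. Macrophage markers summed to 253 to 509 CPM at homeostasis, and at day 30 to 739 to 1108 in wild-type and 790 to 2094 in Q150X hearts, with 5 and 10 of 10 higher. Fibroblast markers summed to 870 to 2111, then 2268 to 4387 and 4688 to 7286, with 4 and 8 of 9 higher, and lymphocyte markers to 3.72 to 7.56 and 12.8 to 19.6 at day 30. Q150X heart replicate 4 of day 30 was lowest of its group in macrophage markers (790), fibroblast markers (4688) and mitosis genes without Cenpf (38.7 against 60.0 to 72.1 CPM).

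In the main edgeR fits none of the 40 genes was called between genotypes at any time in any fraction. None was called in the 4 tests of a difference in response to injury. Some alternative edgeR fits did call members, as given under how the results depend on the processing. Over all genes the main edgeR fits called 0% in each of these comparisons except hearts at day 30 (0.443%).  Outside the 2 comparisons described next, at most 4 of the 40 genes had an unadjusted p under 0.05 between genotypes, and DESeq2 called 1 in endothelial cells at day 3, 1 in uninjured cardiomyocytes and 0 elsewhere. Over all genes the share with such a p ran from 1.67% to 23.2% in these comparisons, highest in endothelial cells at day 3. DESeq2 called 12.9% of all genes there and 1.69% in uninjured cardiomyocytes. Of the tests of response, hearts at day 30 had the most with an unadjusted p under 0.05 (6 mitosis and 1 replication gene), and DESeq2 called 1 there and 0 in the others. Over all genes 9.66% had such a p in that test, and DESeq2 called 0.263%. At day 30, 13 mitosis and 3 replication genes had an unadjusted p under 0.05 in hearts, the medians were 0.91 and 0.49 higher in Q150X, and DESeq2 called 4. Over all genes 13.9% had such a p, the median was 0.04, and DESeq2 called 2.49%. In all, 9 of 23 mitosis genes and 5 of 17 replication genes did not overlap between the groups with Q150X higher, against 9.13% of all genes. Birc5 lay at 0.390, 0.738 and 0.996 CPM in wild-type and 2.31, 3.54, 2.97 and 1.10 in Q150X (1.80 ± 0.44, adjusted p 0.0741), and Ccnb1 at 0.429, 0.413 and 0.306 against 1.70, 1.73, 1.66 and 0.822 (1.94 ± 0.60, 0.152).

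In uninjured endothelial cells the difference had the other sign. All 23 mitosis genes had a lower fitted level in Q150X, with a median of −0.67, against 0.005 for all genes. Here and in hearts at day 30 the genes were read in the same libraries, so they are not independent results. Of the 23, 7 had an unadjusted p under 0.05, DESeq2 called 0, and the smallest adjusted p was 1. Over all genes 0.922% had an unadjusted p under 0.05. In all, 14 of the 23 did not overlap between the groups with Q150X lower, among them Mki67 (13.7, 14.1 and 22.3 CPM against 6.06, 11.9 and 11.1; −0.79 ± 0.37), Ccnb1 (2.20, 3.26 and 3.87 against 0.892, 1.39 and 1.99; −1.12 ± 0.42) and Top2a (−0.65 ± 0.46), against 3.87% of all genes. Of the 17 replication genes 1, Mcm2, did so, and Pcna differed by 0.06 ± 0.19. Summed, mitosis genes without Cenpf lay at 122, 140 and 204 CPM in wild-type and 69.8, 107 and 107 in Q150X, while replication genes overlapped (512 to 591 against 550 to 615).

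Other cell cycle genes were read from lists of 29 further replication genes, 33 further mitosis genes, 7 G1 cyclins and kinases, 11 transcription factors and 12 brakes. In cardiomyocytes at day 3, 19 of 32 tested further mitosis genes rose in wild-type (median 2.05) and 23 rose and 1 fell in Q150X (2.97), among them the cytokinesis regulator Racgap1 (3.86 ± 0.59 in wild-type) and Ckap2 (2.97 ± 0.52 and 4.36 ± 0.58). Ndc80, a kinetochore subunit, had 3 counts in uninjured wild-type cardiomyocytes and 145 at day 3, a pooled ratio of 30.2 (10.1 to 148). Of the 29 further replication genes 2 and 6 rose (medians 0.37 and 0.50), led by the ligase Lig1 (1.42 ± 0.29 and 2.05 ± 0.30). None of the 7 G1 cyclins and kinases was called in either genotype. Over all genes 10.1% rose and 7.22% fell in wild-type, and 14.9% rose and 12.1% fell in Q150X. E2f1, the activator of replication genes, rose by 3.49 ± 0.95 and 3.51 ± 0.88, and Foxm1, which drives mitosis genes, by 2.95 ± 0.80 and 3.59 ± 0.82.

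In endothelial cells at day 3, 8 further replication genes rose and 1 fell in wild-type, and 14 rose in Q150X. Mcm10 rose by 2.66 ± 0.40 and 3.19 ± 0.41, and 4 and 26 further mitosis genes rose. Over all genes 6.71% rose and 2.81% fell in wild-type, and 18.7% rose and 15.1% fell in Q150X. Cdk6 rose by 1.20 ± 0.28 and 2.34 ± 0.28 and Cdk2 fell by 0.73 (SE 0.18) and 0.65 (SE 0.18) on the log2 scale. In hearts at day 30, 8 further replication genes and 9 further mitosis genes rose in Q150X, with Mcm10 at 2.32 ± 0.48. Of the further mitosis genes 1 fell there (Ncapd2, −0.59 ± 0.13). Over all genes 15.6% rose and 14.2% fell in Q150X, and 5.45% rose and 3.49% fell in wild-type. In wild-type no gene of these 2 lists rose, and 2 further mitosis genes fell, Kif15 (−2.57 ± 0.59) and Ndc80 (−2.01 ± 0.60). The brake Cdkn2b rose in both, by 2.94 ± 0.77 in wild-type and 3.16 ± 0.73 in Q150X, and Cdkn1a by 1.75 ± 0.35 in wild-type. Cdkn2a, another brake, had 3 counts in uninjured Q150X hearts and 268 at day 30, a pooled ratio of 59.0 (19.96 to 288). At day 7 the D cyclins Ccnd1 (−1.28 ± 0.22 and −1.39 ± 0.22) and Ccnd2 (−1.04 ± 0.23 and −1.38 ± 0.23) fell in hearts of both genotypes while the brakes Cdkn1a (1.16 ± 0.33 and 1.52 ± 0.33) and Cdkn1b (0.71 ± 0.12 and 1.03 ± 0.13) rose. Between day 7 and day 30 Ccnd1 rose by 1.13 ± 0.22 and 1.28 ± 0.21 and Ccnd2 by 1.49 ± 0.23 and 1.58 ± 0.22, and Cdkn1b fell by 1.03 (SE 0.13) and 0.91 (SE 0.11).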

How the data were processed

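The authors deposited 1 table of raw read counts per Ensembl gene for 43 bulk RNA-seq libraries of total RNA. Per the submitters' processing notes GRCm39, HISAT2 and kallisto were used; versions, the tool behind the counts and strandedness are not named there. Counts of genes that overlap on opposite strands can therefore be mixed (Gins2, Kif20a, Ccne2, Mcm7, Ccna2 and Prc1 among the members). Of 57010 IDs, 52029 were paired with a symbol through GENCODE vM21; the others held at most 0.18% of a library's counts.

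Each fraction was fitted on its own in edgeR 4.0.16 (R 4.3.3, limma 3.58.1): TMM scaling, filterByExpr (minimum count 10, minimum total 15), glmQLFit with robust estimation, and Benjamini-Hochberg adjustment over all genes tested. A joint fit over the 9 uninjured wild-type libraries compared fractions. DESeq2 1.42.0 size factors and tests, library size alone, no filter, a replicate block, and leaving out libraries were the alternatives. The script was tested on simulated data. Tables were handled in Python 3.11.15 with pandas 2.3.3.

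Full statistics went to up to 6 called genes with the smallest p among replication and among mitosis genes, and to Pcna, Mcm2, Rrm2, Mki67, Top2a and Ccnb1; up to 4 called genes of each other list were named. The members and lists were chosen with earlier results of these data known. Marker sums add the CPM of a list's genes. Intervals cover counting error only. The labels state no pairing. Deviations from the group mean were correlated between same-numbered samples of uninjured wild-type and Q150X hearts (0.446 to 0.673). The same held for Q150X hearts of homeostasis and day 7 (0.116 to 0.184), and for no other pair of groups with 3 or more numbers. Replicate 1 of both uninjured heart groups was the library with atrial markers. Such a library shifts the deviations of its whole group, so these correlations cannot decide whether numbers pair samples.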

Additional observations from a re-analysis of the deposited data

Results flagged for a closer look

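The 40 genes and the summed levels of the replication and of the mitosis genes were checked for a library far from the rest in the 3 heart groups of 4 libraries, and 11 of 126 such checks stood out, all of them of single genes; chance gives about 1 in 20. In wild-type hearts at day 7, replicate 4, the library with placental markers, held Rrm2 at 12.18 CPM against 1.98 to 3.16 in the others and Aurkb at 0.942 against 0.303 to 0.330. Replicate 1 held Plk1 at 0.546 against 0.908 to 0.959, and replicate 2 held Cdc20 at 2.757 against 1.44 to 1.53. In Q150X hearts at day 7, replicate 3 held Tyms at 4.17 CPM against 1.65 to 2.02 and Plk1 at 1.278 against 0.926 to 0.962. In Q150X hearts at day 30, replicate 3 held Rrm2 at 7.42 CPM against 3.80 to 4.24 and Cdc6 at 2.223 against 1.20 to 1.34. Replicate 4 of that group held Ccnb1 at 0.822 against 1.66 to 1.73 and Ccnb2 at 0.308 against 1.98 to 2.19, and replicate 1 held Aurka at 2.584 against 1.77 to 1.85.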

How the results depend on the processing

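Counts below are of the 40 genes called. With library size alone, wild-type hearts at day 7 had 1 call in place of 2, and wild-type endothelial cells at day 3 had 4 in place of 7. In that setting, uninjured cardiomyocytes against hearts had 27 in place of 13. The shares of all genes called were then 13.2%, 9.40% and 55.5%, in that order. Without the filter on low counts, wild-type hearts at day 7 had 1. The genotype difference in uninjured cardiomyocytes and the difference in response in cardiomyocytes then had 1 each in place of 0. These fits called 5.15%, 1.95% and 0.787% of all genes, in that order. DESeq2 gave 4 for wild-type hearts at day 7, 1 for day 30 against homeostasis in place of 0, and 17 for wild-type endothelial cells at day 3. It called 18.3%, 15.5% and 19.0% of all genes in these, in that order. For the genotypes it gave 4 in hearts at day 30, 1 in endothelial cells at day 3, 1 in uninjured cardiomyocytes and 1 for the difference in response of hearts at day 30, each in place of 0. Its shares of all genes there were 2.49%, 12.9%, 1.69% and 0.263%, in that order. Without the libraries that stood apart, wild-type hearts at day 30 had 10 in place of 0, where 34.0% of all genes were called in place of 8.93%. The cause of these shifts was not tested.

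Leaving out 1 library in turn gave 1 to 2 calls for wild-type hearts at day 7, 0 to 5 at day 30 (5 without uninjured replicate 1) and 3 to 7 for day 30 against day 7. In Q150X hearts it gave 6 to 19 at day 30 and 7 to 11 for day 30 against day 7. For the genotypes it gave 0 to 1 in hearts at day 30 (1 without Q150X replicate 4) and 0 to 10 in endothelial cells at day 3, with 0 to 10 for their difference in response (10 without Q150X day 3 replicate 1). It gave 1 to 6 for wild-type endothelial cells, 19 to 30 for wild-type cardiomyocytes, and 17 to 32 for uninjured endothelial cells against hearts (17 and 20 without endothelial replicate 3 and 2). Where a group was left with 1 library, that library is assumed to vary like the others. The shares of all genes called with 1 library left out are not given here.

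With the replicate block no count moved by over 1.5 times: for example, wild-type cardiomyocytes had 27 calls, wild-type endothelial cells 9 and Q150X hearts at day 30 15, where Cenpf was no longer called. No named gene that was called reversed its direction under any alternative run. Aurkb and Bub1 had 0 and 1 counts in uninjured Q150X cardiomyocytes, so their size there is known only as a bound or a wide interval.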
